A study of Mus musculus with 24 samples.

Results

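In mice without Thumpd1, the cofactor that Nat10 needs to acetylate cytidine in tRNA, 1 of 8 cholesterol synthesis genes was lower in testes (Fdps, by 25.7%), 1 of 8 was lower in cerebellum (Hmgcs1, 0.868-fold) and 0 of 8 passed the test in liver, against wild-type (WT) littermates. Over all genes tested, 20.5% were called in testes, 6.44% in cerebellum and 5.91% in liver. Both member calls were lost when libraries with neighbouring numbers were summed, a setting in which only 2 testes genes and 47 cerebellum genes passed at all. The Hmgcs1 call was also lost in 6 of 8 fits that left out 1 library. The genes examined are Hmgcs1, Idi1, Fdps, Sqle, Lss and Cyp51, which encode enzymes of the pathway, and Insig1 and Srebf2, which encode its regulators. These 8 genes of the 55450 in the deposited tables were chosen by name as a set for cholesterol synthesis and uptake, by a rule that used no measured value but with earlier results of these data known. None of the 8 is a receptor or transporter that takes up sterol, so they are called the cholesterol synthesis genes here, and uptake genes are given separately. All 8 were measured in every library and passed the filter on low counts in each tissue.

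Total RNA from liver, cerebellum and testes was sequenced after ribosomal RNA depletion, with 4 WT and 4 Thumpd1 knockout (KO) libraries of each tissue, 24 in all. The KO mice carried a CRISPR-Cas9 deletion cut in exons 1 and 4 of Thumpd1, were on a C57BL/6 background and were compared with age-matched WT littermates. Mice of either sex were 6 to 12 weeks old and kept on a 12 h light and dark cycle, and the deletion was present in every cell rather than driven by a tissue promoter. WT libraries carry the numbers 1 to 4 and KO libraries 5 to 8. The study calls the 4 libraries of a group biological replicates, but the labels do not say which animal gave which library, so p-values measure the spread between these libraries, which may be technical.

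The libraries held 16353797 to 37889615 estimated gene counts. Levels are normalised CPM, counts relative to the library's scaled total over all 24 libraries, while log2 changes and adjusted p-values are from limma on quantile-normalised counts within a tissue, adjusted over all genes tested. Thumpd1, on the minus strand of chr7:119715093-119720798 (mm10), stood at 15.5 to 16.8 CPM in the WT livers and at 0.172 or less in the KO livers. It stood at 16.1 to 17.8 CPM in WT and at 0.0824 or less in KO cerebellum, and at 21.2 to 23.4 CPM in WT and 0.641 to 0.933 in KO testes, so every library matched its label. In 18 of 24 libraries the most similar library of the same group was the one with the neighbouring number (1 with 2, 3 with 4, 5 with 6, 7 with 8), over 4072 well expressed genes. The exceptions were liver WT 3 and 4, cerebellum KO 5 and 8 and testes WT 1 and 2, so summing by number also joined libraries that were not nearest. Whether neighbours came from 1 animal is not given in the sources used here. When neighbours were summed and each sum counted once, an alternative chosen after seeing the data, 11 genes were called in the liver, 47 in the cerebellum and 2 in the testes, and none of the 8 genes. The main fits called 757, 1045 and 3957 genes. With fewer units per genotype few genes could pass, so a call lost in this setting does not show that the level was unchanged.

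Cholesterol is built from acetyl-CoA through mevalonate, isoprenoid diphosphates, squalene and lanosterol. The pathway is controlled mainly by SREBP2, a transcription factor made as a membrane protein of the endoplasmic reticulum, carried to the Golgi by Scap when sterols are low and released there by proteolysis. The liver is a main site of synthesis, the brain makes its own cholesterol behind the blood-brain barrier, and the testis uses intermediates and products of the pathway in germ cells and steroid-producing Leydig cells.

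The sterol regulatory element (SRE) bound by SREBP and the CCAAT box bound by NF-Y mark many promoters of this pathway, so the stretches of the 8 promoters that hold them are shown. RefSeq windows from 250 bases before to 50 after the start (GRCm38.p6, the assembly of mm10) were matched for 6 of the 8 genes, all but Sqle and Fdps. An SRE written as TCACNCCAC, searched on both strands, was found in 1 of the 6 windows, that of Hmgcs1 (chr13:119690101-119690400, plus strand), where its leftmost base lies at -137 relative to the start. The same letters occur in 1.24% of 32544 promoters of this length. The Hmgcs1 stretch reads 5′ to 3′, with the SRE in capitals:
Hmgcs1: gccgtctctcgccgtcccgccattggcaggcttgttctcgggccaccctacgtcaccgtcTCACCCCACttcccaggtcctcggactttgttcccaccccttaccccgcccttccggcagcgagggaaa

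A CCAAT box on either strand was found in 6 of 6 windows, against 37.4% of all promoters, and Hmgcs1 held 4 of them, 1 of these downstream of the start at 10. The box nearest upstream of each start is shown with its flanks on the gene's strand, with CCAAT or its reverse complement ATTGG in capitals. The windows of the other 5 genes are chr13:8885356-8885655 (Idi1, plus), chr10:76531355-76531654 (Lss, plus), chr5:4104648-4104947 (Cyp51, minus), chr5:28071162-28071461 (Insig1, plus) and chr15:82147019-82147318 (Srebf2, plus).
Hmgcs1: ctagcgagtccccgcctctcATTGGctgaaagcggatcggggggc
Idi1: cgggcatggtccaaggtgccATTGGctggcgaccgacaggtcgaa
Lss: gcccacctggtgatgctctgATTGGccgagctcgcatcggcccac
Cyp51: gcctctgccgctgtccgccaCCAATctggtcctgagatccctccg
Insig1: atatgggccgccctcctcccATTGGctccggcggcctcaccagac
Srebf2: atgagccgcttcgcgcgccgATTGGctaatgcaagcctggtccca
The leftmost base of the box shown lies at -45 in Hmgcs1, -14 in Idi1, -62 in Lss, -29 in Cyp51, -216 in Insig1 and -135 in Srebf2. A GC box, GGGCGG on either strand, was also found in 6 of 6 windows and in 35.9% of all promoters, and the palindrome TCACGTGA in 0 of 6 and 0.983%. These are matches of letters and were not compared with the expression changes.

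Liver held the highest level of each of the 8 genes on this scaling, and the order of the genes changed with the tissue. In the WT livers, Insig1 had the highest level per kb of exon, 200.5 ± 3.98 CPM per kb (SD, n = 4), followed by Hmgcs1 at 149 ± 19.7, Fdps at 82.0 ± 4.64, Idi1 at 60.8 ± 14.9, Cyp51 at 49.9 ± 4.97, Srebf2 at 25.7 ± 2.22, Sqle at 17.7 ± 1.90 and Lss at 11.0 ± 0.727. Idi1 overlapped with both of its neighbours in that order, Fdps and Cyp51, and no other neighbours overlapped. In the WT cerebellum, Insig1 (13.1 ± 0.686 CPM per kb), Srebf2 (12.8 ± 0.858) and Hmgcs1 (12.2 ± 0.746) led and overlapped with one another. Idi1 (6.23 ± 0.295) and Cyp51 (6.02 ± 0.158) followed and overlapped, as did Sqle (2.78 ± 0.199) and Lss (2.59 ± 0.0958), and Fdps stood lowest there at 1.97 ± 0.187 CPM per kb. In the WT testes, Cyp51 led at 18.0 ± 0.876 CPM per kb, ahead of Sqle at 15.5 ± 0.164 and Idi1 at 15.1 ± 1.27, which overlapped. Hmgcs1 (12.7 ± 0.767) and Fdps (10.2 ± 0.498) came next, Srebf2 (5.97 ± 0.324) and Insig1 (5.37 ± 0.294) overlapped, and Lss was lowest at 1.99 ± 0.0682. Per kb, the regulator Insig1 thus stood at the top in liver and near the bottom in testes, where a late enzyme led. The length used is that of all annotated exons of a gene joined, 10787 bases for Lss and 3093 for Insig1, and the order depends on it. In CPM without length, Lss (21.5) stood above Insig1 (16.6) in WT testes and Hmgcs1 (683) above Insig1 (620.0) in WT liver.

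**Figure D1:**
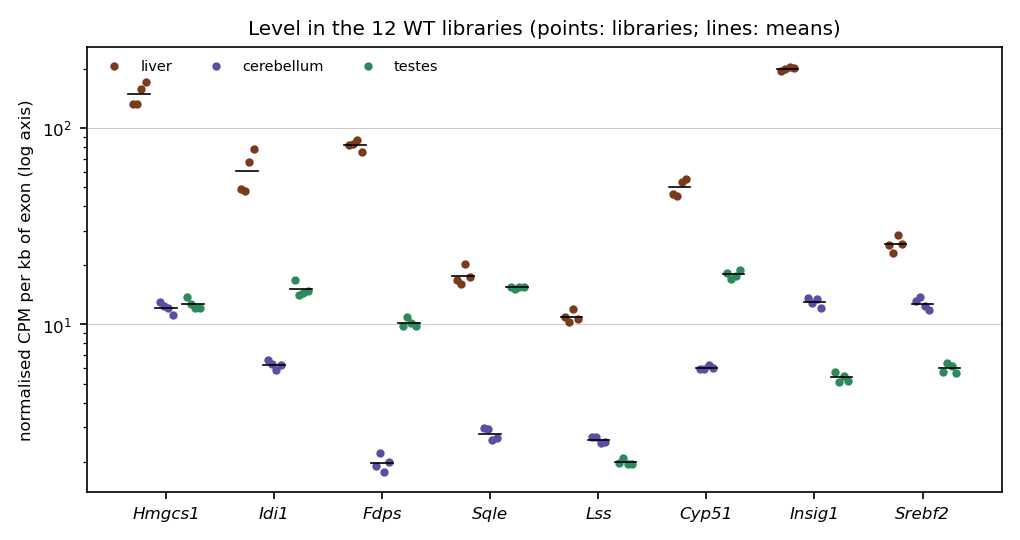
Normalised CPM per kb of exon (log axis) of the 8 genes in the 12 WT libraries, with a point for each library and a line at the mean of 4. On this scaling the liver mean lies above both other tissues for every gene, by the least for Sqle, at 17.7 in liver and 15.5 CPM per kb in testes, while on library totals alone Sqle is highest in testes and Srebf2 in cerebellum.

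Between WT tissues, 8 of 8 genes differed in liver and cerebellum, 8 of 8 in liver and testes, and 7 of 8 in cerebellum and testes. Such differences were the rule, at 87.5%, 90.6% and 90.3% of the 21697 genes tested (limma, adjusted p under 0.05). Fdps, which makes farnesyl diphosphate, was 43.0-fold higher in liver than in cerebellum, and Insig1, which holds SREBP and Scap in the endoplasmic reticulum, 15.9-fold higher. Srebf2, the gene of SREBP2 itself, differed least between these tissues, at 2.08-fold. Against testes, the liver excess was 39.0-fold for Insig1, 12.1-fold for Hmgcs1 and 8.43-fold for Fdps, but 1.19-fold for Sqle, the squalene epoxidase. Sqle and Fdps were 5.49-fold and 5.10-fold higher in testes than in cerebellum, whereas Insig1 and Srebf2 were 2.45-fold and 2.16-fold higher in cerebellum. For Hmgcs1 the testes minus cerebellum difference was 0.05 on the log2 scale (limma adjusted p = 0.685). A few highly expressed genes took much of the liver libraries, whose scaling factors were 0.5934 to 0.6594. On library totals alone, Srebf2 stood 0.14 higher in cerebellum than in liver (log2, limma adjusted p = 0.0526) and Sqle 0.69 higher in testes than in liver (limma adjusted p = 1.7e-07), so the direction of these genes turned with the scaling, as did that of Hmgcs1 between cerebellum and testes.

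Whether the genes responded to loss of Thumpd1 was asked within each tissue. In the testes 1 of 8 was called, in the cerebellum 1 of 8 and in the liver 0 of 8, beside the 20.5%, 6.44% and 5.91% of all genes. The median log2 change of the 8 genes was -0.084 in testes, -0.016 in cerebellum and -0.16 in liver, against 9.7e-05, -0.0059 and -0.003 over all genes. Before adjustment, limma p-values under 0.05 were found for 2, 4 and 1 of 8, beside 37.0%, 24.2% and 23.3% of all genes.

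**Figure D2:**
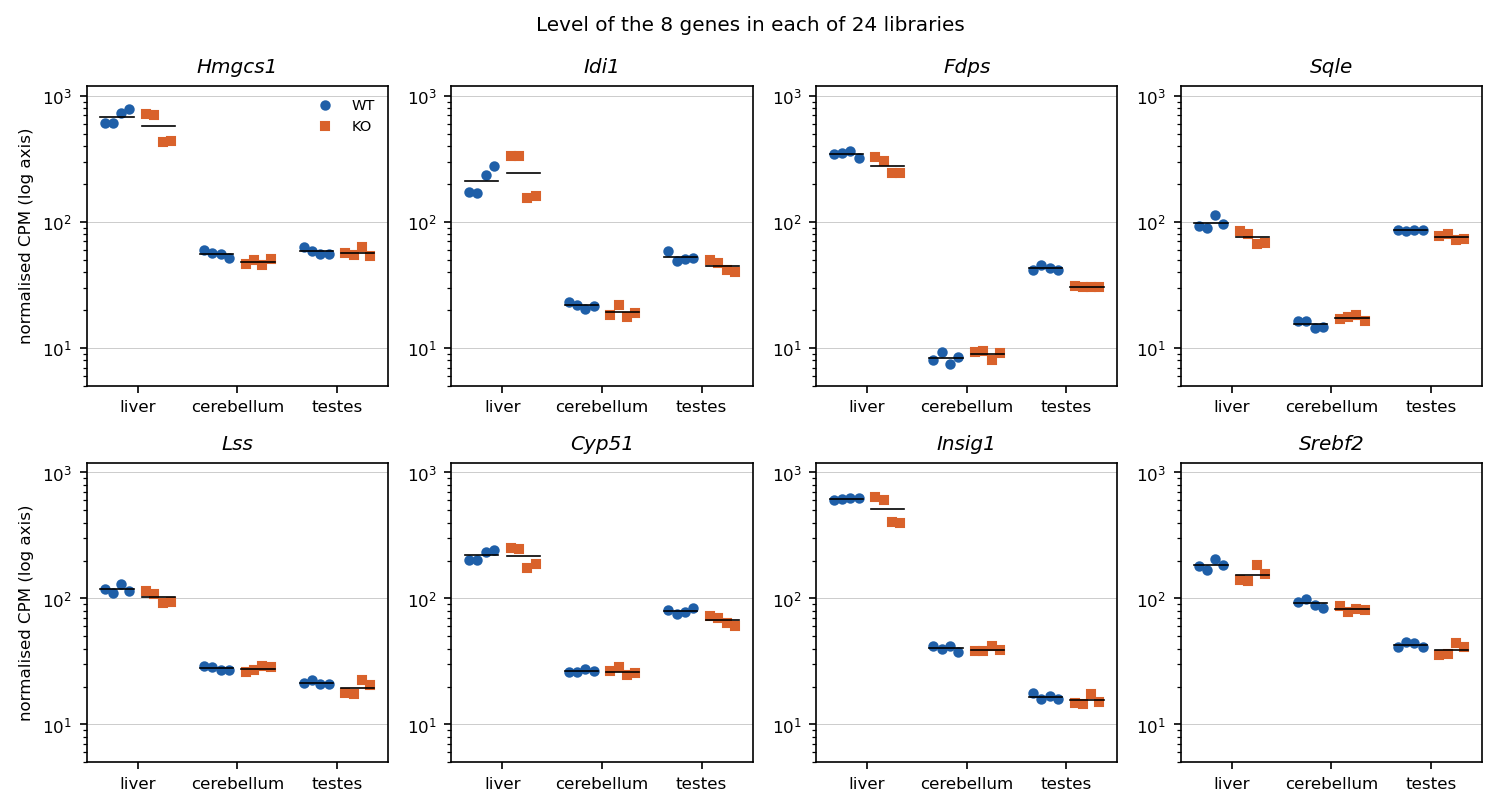
Normalised CPM (log axis) of each of the 8 genes in each of the 24 libraries, with WT as circles, KO as squares and lines at the means of 4. The 4 KO testes libraries of Fdps lie at 30.2 to 30.9 CPM, below the 41.3 to 45.8 CPM of the WT testes, and the KO liver libraries of Idi1, Hmgcs1 and Insig1 fall into a higher and a lower pair.

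The gene that passed the test in testes was Fdps, whose product, farnesyl diphosphate, feeds sterols, dolichol, ubiquinone and protein prenylation. Its WT testes libraries read 41.3, 45.8, 42.7 and 41.5 normalised CPM and its KO testes libraries 30.9, 30.6, 30.2 and 30.4. All 4 KO libraries were below all 4 WT libraries, and the KO libraries lay close together (SD 0.294 CPM). The log2 change was -0.43 (SE 0.0572, 95% interval -0.55 to -0.30), a level 25.7% lower, with a limma adjusted p of 0.00195. The call held with each library left out in turn (limma adjusted p 0.00318 to 0.0121) and was lost with neighbouring libraries summed, where the change was also -0.43 and the limma adjusted p 0.149. Fdps lies on the minus strand of chr3:89093588-89101959 (mm10), and 26.7% of its exon bases are shared with Gm43738, annotated on the same strand, so reads could be split between them. The summed counts of both genes read 41.4 to 46.0 CPM in WT and 30.3 to 30.9 in KO testes.

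The other testes enzymes moved less. Sqle read 86.1, 84.4, 86.5 and 86.0 CPM in WT and 77.9, 80.9, 71.7 and 73.5 in KO testes, groups that did not overlap, with a log2 change of -0.07 (limma adjusted p = 0.330) that was smaller on the quantile-normalised scale than these levels show. Cyp51, the lanosterol demethylase, read 81.1, 75.0, 78.2 and 84.0 CPM in WT and 72.7, 70.1, 63.8 and 60.9 in KO, a change of -0.15 (SE 0.0605, limma adjusted p = 0.0908). With Fdps, 3 of 8 genes had KO testes libraries entirely outside the WT range, all lower, beside 28.8% of all genes in either direction. Idi1, the isopentenyl diphosphate isomerase, read 49.4 to 59.4 CPM in WT and 39.9 to 50.2 in KO. Hmgcs1, Lss, Insig1 and Srebf2 overlapped between genotypes, with log2 changes of -0.10 to 0.05. For Hmgcs1 in testes the mean was lower in KO (56.9 against 58.5 CPM) while the quantile-normalised change was 0.05.

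Markers of testis cell types moved with genotype as well, beside 20.5% of all testes genes called. Of 8 spermatid markers 5 were lower in KO, and their summed level was 8554.9 to 9226.1 CPM in WT and 5483.5 to 7598.0 in KO. Of 8 Sertoli cell markers 6 were higher, with sums of 852.7 to 1003.4 CPM in WT and 1013.7 to 1379.2 in KO. Of 7 Leydig cell markers 1 was higher and 1 lower (sums 963.9 to 1062.0 and 786.97 to 1255.2), and 0 of 8 spermatogonia and spermatocyte markers were called (sums 317.8 to 367.5 and 312.6 to 377.9). The Leydig sums were 844, 839 and 787 CPM in KO 5, 6 and 8, below the WT range, and 1255 in KO 7, above it. No marker of these 4 lists was at 0 in all 8 testes libraries. In bulk tissue, fewer cells of a type and less RNA per cell cannot be told apart, and the part of cell makeup in the Fdps difference was not tested.

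In the cerebellum the call was Hmgcs1, the synthase of HMG-CoA, from which mevalonate is made. Its libraries read 59.6, 57.0, 55.5 and 51.4 CPM in WT and 46.8, 49.9, 45.3 and 51.0 in KO. The groups did not overlap, but the nearest libraries, WT 4 and KO 8, were 51.4 and 51.0. The log2 change was -0.20 (SE 0.0531, 95% interval -0.32 to -0.09, limma adjusted p = 0.0392). The limma adjusted p rose above 0.05 without the low-count filter (0.0709), on library totals alone (0.0537), with neighbours summed (0.161), with the noncoding share as a covariate (0.203), in 1 fit of all 24 libraries (0.667), and when WT 1, 2 or 3 or KO 5, 7 or 8 was left out (up to 0.118). Hmgcs1 (chr13:119690379-119708260, plus strand) shares 12.1% of its exon bases with Gm48342 on the opposite strand, which had 0 or 1 count in each cerebellum library.

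Hmgcs1 was also the 1 of 8 genes whose KO cerebellum libraries lay entirely outside the WT range, beside 14.2% of all genes. Idi1 read 23.1, 22.0, 20.5 and 21.7 CPM in WT and 18.1, 21.9, 17.7 and 19.1 in KO, a change of -0.20 (limma adjusted p = 0.0934) with 1 KO library, KO 6, inside the WT range, and without that library the limma adjusted p was 0.015. Sqle read 16.5, 16.2, 14.3 and 14.6 CPM in WT and 17.0, 17.6, 18.4 and 16.5 in KO, the other direction, at 0.16 (limma adjusted p = 0.139). The log2 change of Srebf2 was -0.14 (limma adjusted p = 0.140), or -0.24 (0.0349) with the noncoding share as a covariate, and those of Fdps, Lss, Cyp51 and Insig1 lay between -0.02 and 0.10. Beside 6.44% of all cerebellum genes called, 3 of 6 granule neuron markers were lower in KO (sums 2431.0 to 2448.4 CPM in WT and 2122.3 to 2267.4 in KO), 2 of 8 oligodendrocyte markers were higher (1925.3 to 2286.0 and 2187.2 to 2337.0), and 2 of 7 astrocyte markers were higher (2125.0 to 2207.5 and 2089.5 to 2174.7), with none of these lists at 0. The part of these cell types in the Hmgcs1 difference was not tested.

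Cerebellum libraries also stood apart in 6 choroid plexus markers, of which 0 were called. Their summed level was 767 and 787 CPM in WT 1 and 2 and 7.03 and 7.08 in WT 3 and 4, against 9.15 and 8.69 in KO 5 and 6 and 259 and 256 in KO 7 and 8. With the 4 libraries under 100 CPM alone (WT 3 and 4, KO 5 and 6), an alternative chosen after seeing the data, the change of Hmgcs1 was -0.13 (limma adjusted p = 0.368) and 0 of 8 genes were called. Fewer genes passed there in general, 396 of 16334.

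**Figure D3:**
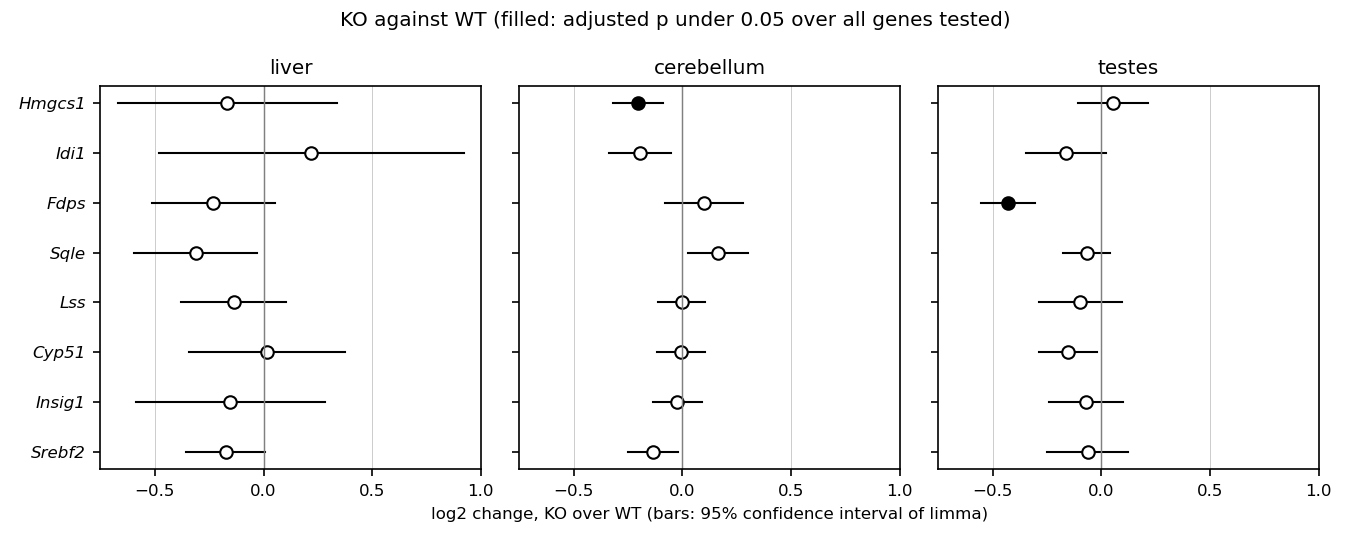
Log2 change of the 8 genes, KO over WT, in each tissue, with bars for the 95% confidence interval of limma and filled points for an adjusted p under 0.05 over all genes tested. Fdps in testes (-0.43) and Hmgcs1 in cerebellum (-0.20) are filled, and the widest interval is that of Idi1 in liver, from -0.48 to 0.92.

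In the liver the smallest p among the 8 genes was that of Sqle, whose enzyme catalyses a rate-limiting step of sterol synthesis. Sqle read 93.7, 88.9, 113 and 97.3 CPM in WT livers and 85.1, 81.0, 67.5 and 68.5 in KO livers, so that every KO library was below every WT library. It was the 1 gene of 8 whose liver groups did not overlap, beside 13.9% of all genes. The log2 change was -0.31 (SE 0.128, 95% interval -0.59 to -0.03) with a limma p of 0.0329 and adjusted p of 0.174, and 0 of 8 genes were called by edgeR or DESeq2. Of all 12816 liver genes edgeR called 807 and DESeq2 1408. The limma adjusted p of Sqle came to 0.0425 with the noncoding share as a covariate and 0.0101 in 1 fit of all 24 libraries, where Fdps (0.0356) was called too. Over all genes these fits called 2001 of 12816 and 1699 of 11112.

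For Idi1, Hmgcs1 and Insig1 the KO livers fell into a high and a low pair. Idi1 read 172, 169, 236 and 276 CPM in WT and 334, 337, 154 and 160.4 in KO livers. Hmgcs1 read 608, 607, 728 and 789 in WT and 722, 700.2, 432 and 441 in KO. Insig1 read 603, 620.0, 632 and 625 in WT and 639, 610.2, 407 and 397 in KO. KO 5 and 6 were alike, KO 7 and 8 were alike, and for each of these 3 genes the gap between the pairs was larger than the change with genotype (log2 0.22 for Idi1, -0.17 for Hmgcs1 and -0.15 for Insig1).

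Fdps, Cyp51 and Lss showed the same split in liver over a smaller range. Fdps read 344, 351, 366 and 319 CPM in WT and 326, 306, 244.5 and 244.6 in KO livers (-0.23, SE 0.128, limma adjusted p = 0.313). Cyp51 read 203, 200.3, 235 and 243 in WT and 251, 249, 175 and 187 in KO livers (0.02, SE 0.163, limma adjusted p = 0.966), where the mean level was lower in KO, 215 against 220.4 CPM, and the quantile-normalised change had the other sign. Lss, the lanosterol synthase, read 118, 111, 129 and 115 in WT and 115, 108, 92.8 and 94.0 in KO livers (-0.14, SE 0.110, limma adjusted p = 0.493). In each, KO 7 and 8 lay below the WT range and KO 5 within or above it. KO 6 lay above the WT range for Cyp51 but below it for Fdps and Lss.

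The mean of KO 5 and 6 exceeded that of KO 7 and 8 by 2.13-fold for Idi1, 1.63-fold for Hmgcs1, 1.55-fold for Insig1, 1.38-fold for Cyp51, 1.29-fold for Fdps, 1.22-fold for Sqle and 1.19-fold for Lss. Srebf2 went the other way, at 141 and 137 CPM in KO 5 and 6 and 184 and 158 in KO 7 and 8, a ratio of 0.816. Among WT livers the mean of libraries 3 and 4 exceeded that of 1 and 2 by 1.5-fold for Idi1, 1.25-fold for Hmgcs1, 1.19-fold for Cyp51, 1.15-fold for Sqle, 1.12-fold for Srebf2, 1.07-fold for Lss and 1.03-fold for Insig1, and was 0.982-fold for Fdps. Srebf2 thus went with most of the other genes in the WT livers and against them in the KO livers. These pairs were chosen after the values were seen and carry no test. Of the summed squared deviation of the 8 genes from their group means, 79.7% was in the liver libraries.

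Over the 8 liver libraries, the deviations of 7 genes from their group means were positively correlated, although in WT 4 Idi1, Hmgcs1 and Cyp51 lay above their means and Fdps, Lss and Sqle below. The 21 pairs among them had Pearson's r of 0.73 to 1.00, while the 7 pairs with Srebf2 had r of -0.69 to -0.20. The median r over all 28 pairs was 0.835 in liver, 0.241 in cerebellum and -0.065 in testes. The points are 8 libraries of a tissue, share depth and scaling, and rest in liver on pairs of neighbouring numbers. Of these, WT 3 and 4 were each most similar to WT 1 over the well expressed genes.

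**Figure D4:**
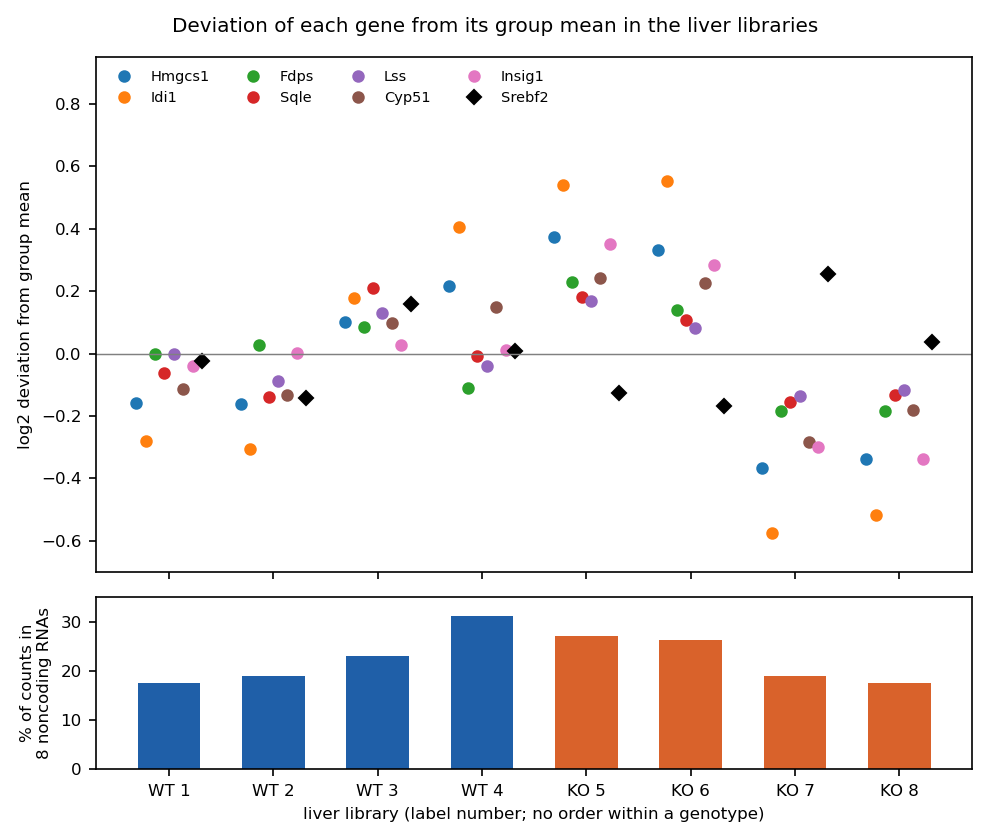
Upper panel, log2 deviation of each of the 8 genes from its group mean in each liver library. Lower panel, the percent of estimated counts in 8 abundant noncoding RNAs. In KO 5 and 6 every gene but Srebf2 lies above 0 and in KO 7 and 8 below it, with Srebf2 (diamonds) on the other side.

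The share of counts in 8 abundant noncoding RNAs moved with these pairs. It was 17.5%, 19%, 23.1% and 31.2% in WT 1 to 4, 27.2% and 26.4% in KO 5 and 6, and 18.9% and 17.5% in KO 7 and 8. KO 5 and 6 were also the shallower KO liver libraries, with 19958739 and 18145725 counts against 37889615 and 30258515. Summed hepatocyte markers read 92487 and 92268 CPM in KO 5 and 6 and 127630 and 136370 in KO 7 and 8, beside 82541 to 100300 in WT.

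Markers of liver endothelial and stellate cells, 0 of 7 called, summed to 518 and 534 CPM in KO 5 and 6 and 752 and 753 in KO 7 and 8, with 554 to 641 in WT. The mean log2 level of fatty acid synthesis genes was 8.56 and 8.53 in KO 5 and 6 and 8.07 and 8.03 in KO 7 and 8, with 8.73 to 8.84 in WT, so every KO liver was below WT. Their summed level, which the most abundant genes dominate, was 30168 and 30262 CPM in KO 5 and 6, within the WT range of 26222 to 30291, and 17512 and 17502 in KO 7 and 8. Summed fasting genes read 5432 and 5387 CPM in KO 5 and 6 and 8061 and 7874 in KO 7 and 8, with 5616 to 6791 in WT. Among them Igfbp1 read 33.8, 35.8, 53.1 and 48.6 CPM in WT and 112, 119.7, 231 and 218 in KO livers, so that every KO liver was above the WT range. The part of any of these measures in the pattern was not tested.

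The genes most like the 8 in how their mean deviation varied over the 24 libraries, among 11112 genes expressed in all tissues, were Tsc22d1 (r = 0.96), Anp32e (0.95), Nr1d2 (0.94), Chrna4 (0.93), Smpd3 (0.92), Cyp26b1 (0.91), Psme3 (0.89) and Arrdc3 (0.89). Tsc22d1 read 108, 102, 124 and 137 CPM in WT and 196, 187, 92.6 and 97.2 in KO livers. Cyp26b1, which degrades retinoic acid, read 36.5, 33.7, 56.2 and 49.2 in WT and 28.4, 24.8, 4.91 and 5.72 in KO livers. Chrna4, a nicotinic receptor subunit gene, read 10.1, 10.2, 23.7 and 23.9 in WT and 27.5, 27.7, 9.04 and 8.87 in KO livers. All 3 were higher in KO 5 and 6 than in KO 7 and 8 and higher in WT 3 and 4 than in WT 1 and 2, although every KO library of Cyp26b1 lay below the WT range. These correlations lean on the liver libraries, where r was 0.955 to 0.981.

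The change with genotype was then compared between tissues for each gene, in limma with TMM scaling over the 24 libraries. The KO change of Sqle in cerebellum exceeded that in liver by 0.52 on the log2 scale (SE 0.150, 95% interval 0.21 to 0.83, limma adjusted p = 0.0331). That of Fdps in testes was below that in cerebellum by 0.60 (-0.60, SE 0.194, 95% interval -1.0 to -0.20, limma adjusted p = 0.0380). These were 1 of 8 genes in each contrast, where 7.67% and 14.5% of the 11112 genes tested were called, and between testes and liver 0 of 8 were called, beside 15.9%, with the smallest limma adjusted p at 0.233 for Fdps. Both calls were lost in limma with quantile normalisation (adjusted p 0.0701 and 0.0782) and with neighbours summed (limma adjusted p 0.332 and 0.254). The Sqle call held in 9 of 16 fits that left out 1 library of these tissues and was lost without liver WT 3, KO 7 or KO 8 or cerebellum WT 3, WT 4, KO 5 or KO 7 (limma adjusted p 0.0534 to 0.0791). The Fdps call held in 5 of 16 such fits and was lost without cerebellum WT 1, 3 or 4 or KO 5, 6 or 8, or testes WT 2, 3 or 4 or KO 7 or 8 (limma adjusted p 0.0508 to 0.0772).

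The rest of the pathway was read from lists of related genes. Of 15 other sterol synthesis enzymes tested in the liver, 0 rose and 2 fell, with 5.91% of all genes called in either direction. Mvd, the mevalonate diphosphate decarboxylase just before Idi1, read 41.4, 40.4, 45.0 and 37.1 CPM in WT livers and 22.9, 23.1, 19.1 and 15.1 in KO livers. The groups were far apart, at a log2 change of -1.03 (SE 0.142, limma adjusted p = 0.00291). Hsd17b7, a sterol ketone reductase, read 108, 98.0, 112 and 109 in WT and 81.8, 77.0, 65.8 and 70.3 in KO livers, a change of -0.47 (SE 0.109, limma adjusted p = 0.0323) that was lost without the low-count filter (0.0558) and in 5 of 8 fits with 1 library left out (WT 1, 3 or 4, KO 7 or 8, limma adjusted p 0.0603 to 0.0931). In contrast to Idi1 and Hmgcs1, both enzymes were lower in all 4 KO livers, KO 5 and 6 included. The liver change of Mvd differed from that in cerebellum by 1.10 (limma adjusted p = 0.000933) and from that in testes by 0.76 (limma adjusted p = 0.0139).

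In the testes 0 of the 15 enzymes rose and 1 fell, beside 20.5% of all genes called. The one that fell was Mvk, the mevalonate kinase that stands before Fdps in the pathway. Mvk read 6.16, 8.63, 7.44 and 8.02 CPM in WT and 5.08, 4.81, 5.53 and 5.18 in KO testes, without overlap, a change of -0.52 (SE 0.114, limma adjusted p = 0.011). In the cerebellum 0 of 15 were called, with a median log2 change of -0.067. With neighbours summed, the calls of Mvd, Hsd17b7 and Mvk were lost.

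**Figure D5:**
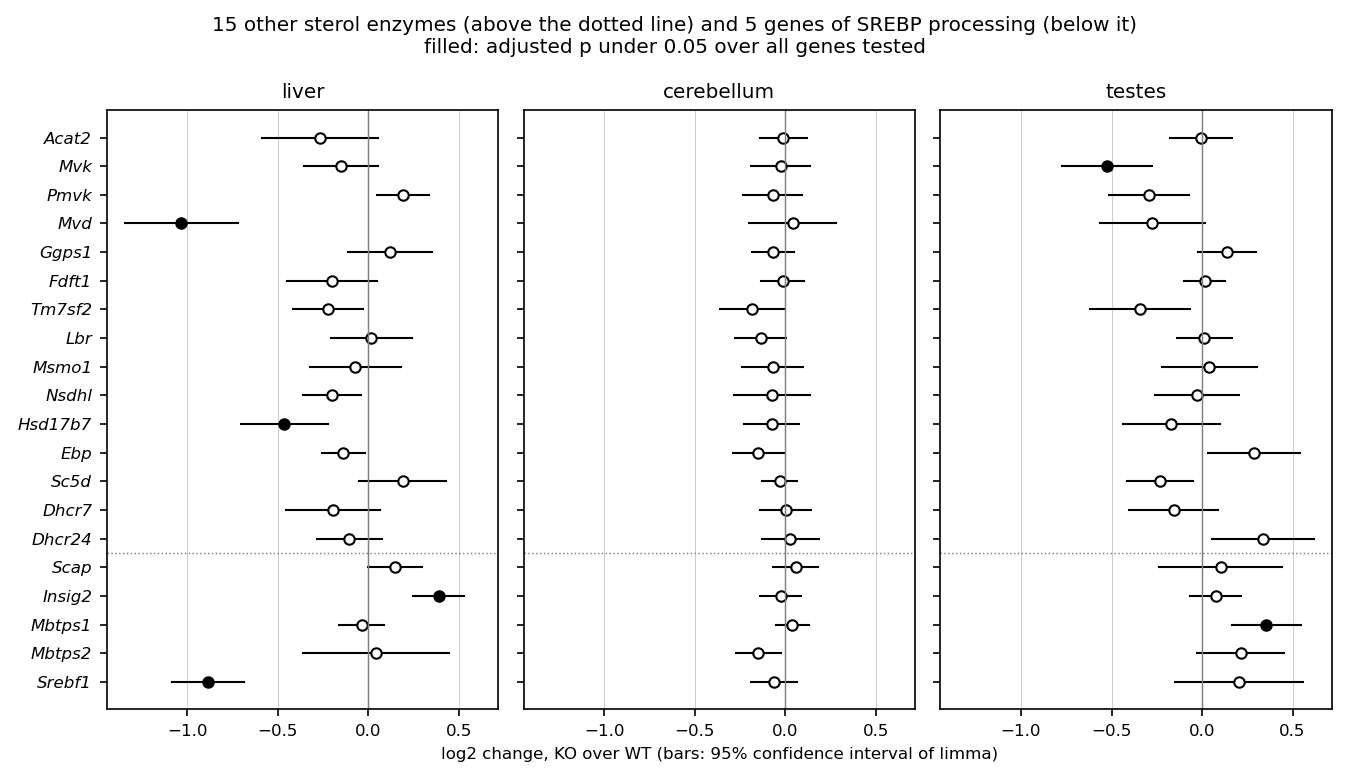
Log2 change, KO over WT, of 15 other sterol synthesis enzymes and, below the dotted line, 5 genes of SREBP processing in each tissue, with bars for the 95% confidence interval of limma and filled points for an adjusted p under 0.05. In liver, Mvd (-1.03), Hsd17b7 (-0.47), Insig2 (0.39) and Srebf1 (-0.88) are filled, in testes Mvk (-0.52) and Mbtps1 (0.35), and in cerebellum none.

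Of 5 genes of SREBP processing, 1 rose and 1 fell in liver, beside 5.91% of all genes called. Srebf1, the gene of SREBP1 that directs fatty acid synthesis, read 732, 736, 544 and 507 CPM in WT livers and 317, 286, 349 and 320.4 in KO livers. Every KO liver was below every WT liver (log2 change -0.88, SE 0.0903, limma adjusted p = 0.000582), whereas the related Srebf2 changed by -0.17 (SE 0.083, limma adjusted p = 0.236). Insig2, the paralogue of Insig1, read 247, 248, 223 and 207 in WT and 282, 290.2, 286 and 292 in KO livers (0.39, SE 0.0634, limma adjusted p = 0.00679), and it did not follow the split of KO livers that Insig1 showed. In the testes, where 20.5% of all genes were called, 1 of the 5 rose, the SREBP protease gene Mbtps1 (0.35, limma adjusted p = 0.0175, and 0.0566 or 0.0578 without WT 3 or WT 4). Both liver calls were lost with neighbours summed.

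Genes of sterol uptake and transfer were called once in each of 2 tissues and not in liver (0 of 8), beside 6.44% of all genes in cerebellum, 20.5% in testes and 5.91% in liver. In the cerebellum 1 of 9 fell, Stard4, which carries cholesterol between membranes inside the cell. It read 32.7, 31.4, 33.7 and 33.1 CPM in WT and 23.0, 25.2, 22.1 and 22.8 in KO cerebellum, a change of -0.49 (SE 0.0509, limma adjusted p = 0.000306). Of the sterol and fatty acid genes named as called, Stard4 was the one whose call held with neighbours summed (limma adjusted p = 0.0347). In the testes 1 of 8 rose, the lipoprotein receptor gene Lrp8 (0.47, limma adjusted p = 0.00671).

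Sterol efflux genes were called in testes, where Abca1 (0.42, limma adjusted p = 0.015) and Abcg1 (0.74, limma adjusted p = 0.0116) rose and the liver X receptor gene Nr1h3 fell (-0.55, limma adjusted p = 0.00681), 3 of 6 tested, beside 20.5% of all genes there. In liver 0 of 7 and in cerebellum 0 of 5 were called, beside 5.91% and 6.44% of all genes, and the difference between tissues was not tested for the list. In the liver, 1 of 10 fatty acid synthesis genes fell, Fasn (-0.91, limma adjusted p = 0.00813), and all 10 estimates were negative with a median of -0.27. In cerebellum 1 of 11 rose, Fasn itself (0.19, limma adjusted p = 0.0293), a call lost without WT 1, 3 or 4 or KO 5, 7 or 8 (limma adjusted p 0.0529 to 0.0866) and in 5 of 11 other settings. In testes 3 of 10 rose, Acaca, Gpam and Mlxipl, with a median of 0.25 over the list, beside 20.5% of all genes. The call of Gpam was lost without any of the 4 WT libraries or KO 7 or 8 (limma adjusted p 0.0582 to 0.119) and that of Mlxipl without WT 3 or 4 (0.0545 and 0.0592). Beside the 5.91% of all liver genes called in either direction, 5 of 10 genes that fasting raises in liver rose, among them Igfbp1 (2.03). Fgf21 (2.74) was another of the 5 but stood near the low-count filter. It read 1.23, 1.24, 0.258 and 0.25 CPM in WT and 2.11, 3.68, 4.05 and 3.85 in KO livers. Of 13 circadian clock genes 6 fell in liver, with Dbp at -2.77 and Per2 at -1.01 on the log2 scale. In the cerebellum 4 of 14 clock genes fell and 0 rose, beside 6.44% of all genes, with Dbp at -0.27, Nr1d1 at -0.30, Nr1d2 at -0.29 and Per3 at -0.20. Time of day and feeding at collection are not given in the labels, and their part in the liver and cerebellum levels of the 8 genes, Hmgcs1 in cerebellum included, was not tested. Of 8 hepatocyte markers 2 were higher and 1 lower in KO livers, with sums of 82541 to 100300 CPM in WT and 92268 to 136370 in KO, and no hepatocyte marker was at 0.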

How the data were processed

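The authors aligned stranded, paired-end total RNA reads with STAR to mm10 and estimated counts with RSEM on GENCODE M21, per the labels and methods; tool versions and the counting strand are not given in the sources used here. The deposited values are RSEM expected counts, which were rounded only for the edgeR and DESeq2 alternatives. With R 4.3.3, genes with at least 1 CPM in at least 4 of 8 libraries were tested per tissue with limma 3.58.1 (voom, quantile normalisation, Benjamini-Hochberg threshold 0.05). Tissue effects were compared with limma-voom and TMM from edgeR 4.0.16, which also gave the printed CPM. DESeq2 1.42.0 and edgeR were alternatives, and the fits were tested on simulated data. Summed neighbours, a noncoding covariate, library totals alone and the cerebellum libraries low in choroid plexus markers were added after seeing the data. Members and lists were chosen with earlier results of these data known. Named genes are the 8 members, called list genes and the genes most correlated with the members. Replicate numbers did not pair libraries: of 24 same-number pairs, 6 had r over 0.1. Intervals cover the spread between these libraries. Some genes of the pathway are not reported here.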

Additional observations from a re-analysis of the deposited data

Results flagged for a closer look

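The KO change of Sqle in cerebellum minus that in liver was 0.52 on the log2 scale, and that of Fdps in testes minus cerebellum was -0.60. Each was flagged because the difference between tissues passed its own limma test. Among 48 groups of 4 libraries of the 8 genes, 2 held a library far from the others: Lss in WT testes, whose highest library was at 22.6 CPM, and Insig1 in KO testes, whose highest was at 17.4 CPM. Chance flags about 1 in 20 groups.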

How the results depend on the processing

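The liver count of members called, 0, became 1 with the noncoding share as a covariate and 2 in 1 fit of 24 libraries. Calls over all liver genes rose as well, from 757 of 12816 to 2001 of 12816 and 1699 of 11112. The cerebellum count, 1, became 0 with no filter, library totals alone, neighbours summed, the 4 libraries low in choroid plexus markers or 1 fit of 24 libraries, 2 with sample weights (Hmgcs1 and Idi1), and 0 to 2 with a library left out, and stayed at 1 with the noncoding covariate, where Srebf2 and not Hmgcs1 was called. Of 16225 cerebellum genes, 1045 were called in the main fit, 1062 on totals alone, 1757 with sample weights and 326 with the covariate. No filter called 681 of 30303 genes and 1 fit 106 of 11112. The testes count, 1, became 2 with edgeR or DESeq2 (Fdps and Cyp51), 3 with sample weights (Fdps, Lss and Srebf2) and 0 with neighbours summed. Of 19329 testes genes, 3957 were called in the main fit, 4442 with edgeR, 5039 with DESeq2 and 6107 with sample weights. The tissue differences of Sqle and Fdps, 1 call each, became 0 with quantile normalisation or neighbours summed, and 0 to 1 with a library left out. Small changes turned direction. In liver, Cyp51 was -0.0087 with no filter, -0.0083 with sample weights, -0.0042 in 1 fit, and -0.092 to 0.15 with a library left out. In cerebellum, Lss was 0.0020 on totals alone (-0.028 to 0.021 with a library left out), Cyp51 0.069 with the covariate and 0.031 in the libraries low in choroid plexus markers (-0.041 to 0.020), and Insig1 -0.062 to 0.00085. In testes, Insig1 was 0.036 and Srebf2 0.0038 on totals alone, and Hmgcs1 -0.043 in 1 fit (-0.013 to 0.10). For cerebellum minus liver, Hmgcs1 was -0.024 with edgeR and -0.085 with quantiles (-0.12 to 0.18), Cyp51 -0.14 to 0.091 and Srebf2 -0.0088 to 0.11. For testes minus liver, Lss was -0.0099 with quantiles (-0.035 to 0.12). For testes minus cerebellum, Idi1 was 0.0027 with quantiles (-0.12 to 0.0028) and Srebf2 -0.028 to 0.069. Between WT tissues, Srebf2 (0.14) and Sqle (0.69) turned on totals alone, and Hmgcs1 was -0.26 with quantiles and -0.20 on totals alone. The cause was not tested. The replicate block, though the numbers did not pair libraries (r -0.184 to 0.232, 8 of 24 libraries closest to their own number), kept the interaction counts at 1, 0 and 1 and the WT counts at 8, 8 and 7. Counting strand is not known, so overlapping genes are uncertain.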
